A study of Mus musculus with 13 samples.

Results

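The S100 calcium-binding proteins were followed in cultured mouse prostate cells given the hormonal form of vitamin D. The 10 genes listed were S100a1, S100a3, S100a4, S100a6, S100a8, S100a9, S100a10, S100a11, S100a14 and S100a16, and probe sets were chosen by the gene symbol of the platform annotation, with the brightest probe set over all arrays standing for a gene. Of these 10 genes, 9 were measured, among 18193 genes on the array. The probe set for S100a11 also carries the symbols of a pseudogene, S100a11-ps, and of Gm12854, so no value is given for S100a11. The 9 genes had 13 probe sets of their own: 3 for S100a10, 2 each for S100a1 and S100a16, and 1 for each of the other genes.

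Cells were prostate progenitor/stem cells at passage 22, cultured from 10 wk old wild-type B1/6; 127/SVEV mice. They received 100 nM 1,25-dihydroxyvitamin D3 (1,25D below) or vehicle, which was ethanol at 0.1%, and RNA was taken after 48 h (4 arrays with 1,25D, 3 with vehicle) or 6 h (3 arrays each). Each of the 13 RNA samples was hybridised to 1 Affymetrix array. Whether replicates came from separate cultures is not in the labels, so p-values measure only the spread between these arrays. With RNA of whole cultures, fewer cells of a type and less RNA per cell cannot be told apart.

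S100 proteins are small proteins with a pair of EF-hand loops that bind calcium. They mostly work as dimers: calcium opens a surface that grips a partner, such as an annexin, a myosin or an enzyme, and several members are also released and act on receptors of other cells. In stratified epithelium S100a8 and S100a9 are known as genes of stressed or differentiating cells, and in neutrophils their proteins form calprotectin, a complex that withholds zinc and manganese from microbes. S100g, a more distant relative also called calbindin-D9k, is a classical vitamin D target of the intestine.

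Signals are log2 values as deposited, and a change is a difference of group means on that scale, tested in 1 limma fit across all 45037 probe sets. A gene was called at a Benjamini-Hochberg adjusted p under 0.05, and rose and fell refer to calls. Epithelial markers were bright in these cultures: Krt5, Krt14, Krt8, Krt18, Epcam and Cdh1 averaged 11.9 to 13.99, and of 8 such markers 0 lay below the median probe set. Of 14 neutrophil and macrophage markers, 10 lay below the median probe set, Ptprc, Itgam and Adgre1 among them. Arrays separated first by time, on a component with 45.4% of the variance, and on a second component with 23% a pair of arrays stood apart, 1,25D 48 h replicate 4 and replicate 1 of the vehicle 6 h group. All arrays were kept, and values without these 2 arrays are given where a call depends on them.

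After 48 h of 1,25D, S100a8 and S100a9 rose and S100a4 fell, while the other 6 measured S100 genes did not pass the test. S100a8 and S100a9 were each a little under 2-fold higher, and S100a4 signal dropped to 0.552 of that in vehicle. The 3 called genes of 9 compare with 2.39% of all 18193 genes called at 48 h, 1.43% higher and 0.951% lower. At an unadjusted p under 0.05 there were 6 of 9, against 10.3% of all genes. The median change over the 9 genes was 0.25, against -0.0024 over all genes. The genes were listed with earlier results of these data known, so these comparisons with all genes only describe the list.

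**Figure D1:**
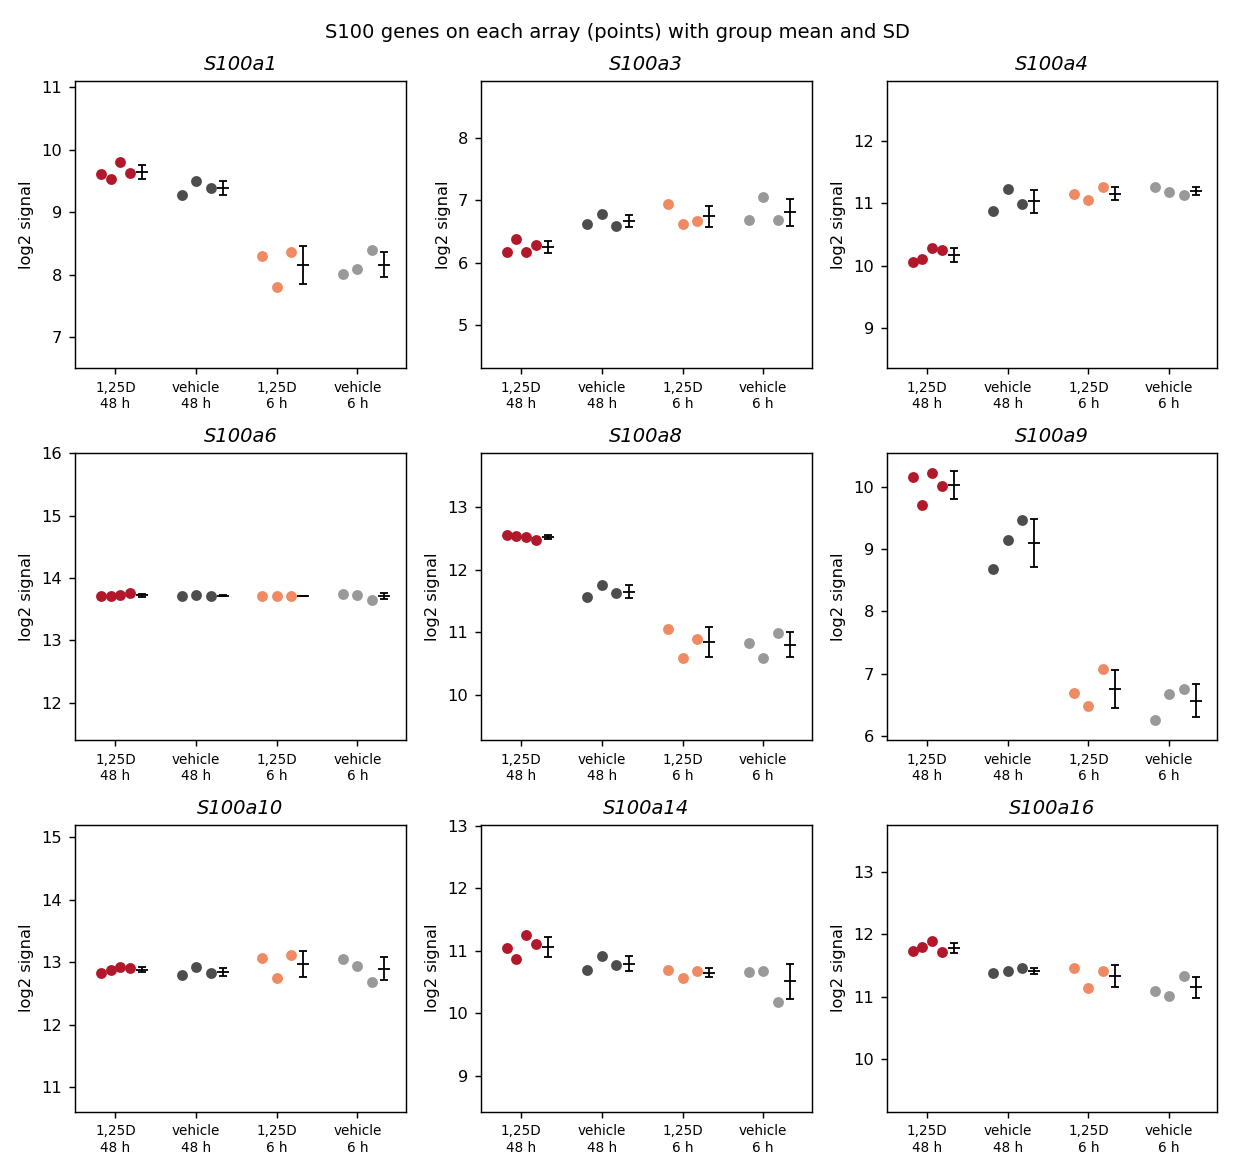
Log2 signal of the 9 measured S100 genes (y axis, the same span of signal in each panel) on every array of the 4 groups (x axis); points are arrays and bars are the group mean with its SD. S100a8 and S100a9 were highest on the 1,25D 48 h arrays and S100a4 was lowest there, while S100a6 stayed between 13.65 and 13.76 on all 13 arrays.

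S100a8 encodes the calprotectin subunit that pairs with S100a9. Its log2 signals were 12.56, 12.54, 12.52 and 12.48 on the 1,25D 48 h arrays, against 11.56, 11.76 and 11.63 on the vehicle 48 h arrays. All 4 treated arrays lay above the 3 vehicle arrays, with no overlap. The group means were 12.53 ± 0.0358 (SD, n = 4) with 1,25D and 11.65 ± 0.103 (SD, n = 3) with vehicle, a log2 change of 0.88 (SE 0.11) or 1.83-fold, with an adjusted p of 0.000562 in limma. At 6 h the signals were 11.04, 10.58 and 10.90 with 1,25D and 10.83, 10.58 and 10.98 with vehicle. These groups overlapped, and the change of 0.04 had a 95% interval of -0.21 to 0.30. The probe set belongs to a type that can match more than 1 transcript, so its signal may include a close relative.

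S100a9 encodes the other subunit and had the largest range of the measured family. Its signals were 10.15, 9.71, 10.21 and 10.01 on the 1,25D 48 h arrays, against 8.69, 9.15 and 9.46 on the vehicle 48 h arrays. The groups did not overlap, but the vehicle arrays lay farther apart than those of S100a8. The means were 10.02 ± 0.223 (SD, n = 4) with 1,25D and 9.10 ± 0.39 (SD, n = 3) with vehicle, a log2 change of 0.92 (SE 0.21) or 1.9-fold. The adjusted p by limma was 0.0446, close to the threshold. Its call was lost in 8 of the 13 fits that dropped a single array: those dropping replicate 1, 3 or 4 of the 48 h group with 1,25D, replicates 1 or 2 of its vehicle group, replicate 1 of the 6 h group with 1,25D, and replicates 2 or 3 of its vehicle group. Adjusted p was 0.0515 to 0.277 in these 8, and the change ranged from 0.72 to 1.10 over all 13. Centring each array on its median (adjusted p = 0.0708) or fitting only the 48 h arrays (adjusted p = 0.0709) also ended the call. Without both arrays that stand apart S100a9 was called (change 0.93, adjusted p = 0.0349 by limma). At 6 h its signals were 6.70, 6.49 and 7.08 with 1,25D and 6.27, 6.68 and 6.76 with vehicle. These overlapped, with a change of 0.19 and a 95% interval of -0.29 to 0.66.

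S100a4 encodes a protein that binds nonmuscle myosin and is widely used as a marker of fibroblasts and motile cells. Its signals were 10.06, 10.10, 10.29 and 10.26 on the 1,25D 48 h arrays, against 10.88, 11.23 and 10.98 on the vehicle 48 h arrays. All treated arrays lay below all vehicle arrays, and the 1,25D 48 h group was the lowest of the 4 groups. The means were 10.18 ± 0.114 (SD, n = 4) with 1,25D and 11.03 ± 0.179 (SD, n = 3) with vehicle, a log2 change of -0.86 (SE 0.098, adjusted p = 0.00023 by limma). At 6 h the signals were 11.15, 11.06 and 11.27 with 1,25D and 11.27, 11.18 and 11.14 with vehicle, and these overlapped. Across the 27 alternative settings S100a4 kept its call at 48 h in all 27, with adjusted p up to 0.00484, and S100a8 in all 26 that measured it, with adjusted p up to 0.00629.

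**Figure D2:**
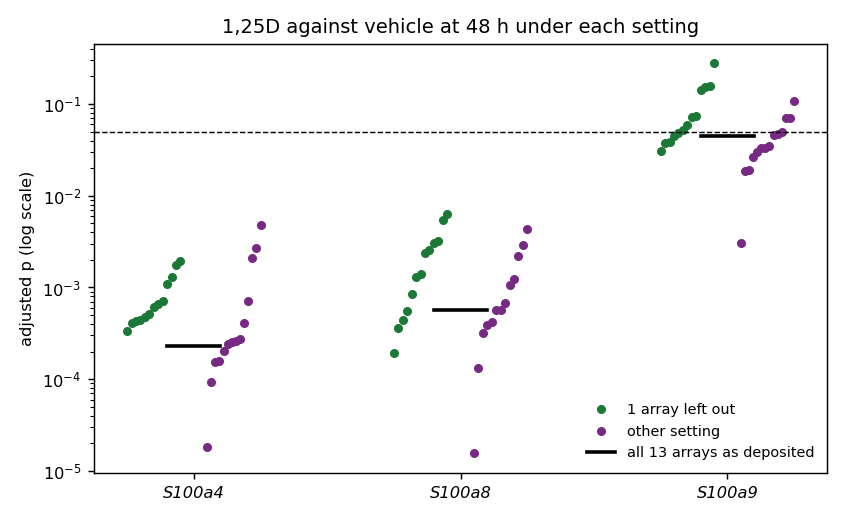
Adjusted p of the 48 h comparison (y axis, log scale) for S100a4, S100a8 and S100a9 when 1 array was left out (green) or another setting was changed (purple); the black bar is the fit of all 13 arrays as deposited and the dashed line is 0.05. S100a4 and S100a8 stayed below 0.05 in every setting shown, whereas S100a9 crossed it in 11 of 27.

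Markers of other cells were read beside these changes. Over all genes, 1.43% were called higher and 0.951% lower at 48 h. Of 10 fibroblast and stromal markers, 7 lay below the median probe set and 0 were called at 48 h, and their summed linear signal was 1648 to 1959 on 1,25D arrays and 2198 to 2589 on vehicle arrays. Most of that sum came from Vim, the gene of the intermediate filament protein vimentin, which averaged 10.46 with 1,25D and 11.01 with vehicle (change -0.55, adjusted p = 0.0565). Col1a1, Col3a1, Dcn, Lum, Pdgfrb and Thy1 had changes of 0.14, 0.05, 0.14, 0.11, 0.15 and 0.18. Acta2, Pdgfra and Col1a2 went the other way, with changes of -0.22, -0.06 and -0.0016. The summed signal of the 8 epithelial markers was 56268 to 58108 with 1,25D and 63026 to 66305 with vehicle. Of these 8, 2 fell and 0 rose at 48 h, the luminal keratin genes Krt8 (-0.43, adjusted p = 0.000158) and Krt18 (-0.34, adjusted p = 0.000503). Of 3 adipocyte markers, 1 rose, the lipoprotein lipase gene Lpl (1.01, adjusted p = 0.0028), and 0 of 5 glial and 0 of 4 endothelial markers were called at 48 h. Of 14 neutrophil and macrophage markers, 1 rose at 48 h with S100a8 and S100a9, the lysosomal gene Cd68 (log2 change 1.23). The summed signal of that list was 14842 to 16102 with 1,25D and 13898 to 14639 with vehicle, most of it from Ltf, the gene of the secreted iron binder lactoferrin, which epithelium also makes. At 6 h the sum was 3546 to 4009 with 1,25D and 2340 to 2912 with vehicle. With time in vehicle 2 of the 14 rose, Ltf (2.72) and Cd68 (1.02), and 0 fell, against 9.84% and 8.75% of all genes. With 1,25D at 6 h 1 of the 14 rose, Ltf (0.68, adjusted p = 0.000942 by limma), and 0 fell, against 0.687% and 0.165%. Ptprc, the gene of the pan-leukocyte protein CD45, averaged 4.13 over the 13 arrays, at the 15.9 percentile of probe sets. The part of changes in cell type in the S100 changes was not tested.

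The promoters of these 3 genes are shown because these are the genes called with 1,25D. The sequences are the 250 bases before the RefSeq start of each gene in build GRCm38.p6, read along the gene's strand. Capitals mark matches to the motifs searched. The motifs were the vitamin D receptor core, spelled AGGTCA, or with variant spelling AGTTCA, or with spelling GGTTCA, or with spelling GGGTCA (both strands), pairs of these cores 3 bases apart (the DR3 arrangement), TATAAA on the gene's strand, the AP-1 motif TGANTCA and the C/EBP motif TTNNGNAAT (both strands).
S100a8, chr3:90668821-90669070, plus strand: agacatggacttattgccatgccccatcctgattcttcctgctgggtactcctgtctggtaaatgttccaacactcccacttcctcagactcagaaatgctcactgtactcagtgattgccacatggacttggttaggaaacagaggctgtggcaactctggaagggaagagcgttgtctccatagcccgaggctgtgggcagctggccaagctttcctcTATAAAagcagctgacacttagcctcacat
S100a9, chr3:90695722-90695971, minus strand: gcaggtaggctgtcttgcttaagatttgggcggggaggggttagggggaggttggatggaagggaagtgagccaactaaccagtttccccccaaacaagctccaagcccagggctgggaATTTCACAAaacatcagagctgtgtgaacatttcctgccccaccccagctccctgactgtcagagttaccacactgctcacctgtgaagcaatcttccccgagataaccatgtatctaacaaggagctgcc
S100a4, chr3:90603520-90603769, plus strand: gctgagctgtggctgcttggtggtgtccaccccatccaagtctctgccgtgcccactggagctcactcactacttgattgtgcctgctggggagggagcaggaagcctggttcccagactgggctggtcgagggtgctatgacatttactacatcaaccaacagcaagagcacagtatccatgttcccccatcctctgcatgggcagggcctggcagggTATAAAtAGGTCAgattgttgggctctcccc
The S100a8 window held a TATAAA from 30 to 25 bases before the start and no other match. The S100a9 window held a single match, to the C/EBP motif on the opposite strand, from 131 to 123 bases before the start. The S100a4 window held a TATAAA from 31 to 26 bases and a receptor core AGGTCA from 24 to 19 bases before the start, without overlap.

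Such matches are common. Of 32851 RefSeq promoter windows of this length, 38.6% held a receptor core, 7.59% a TATAAA, 10.2% the C/EBP motif and 6.75% the AP-1 motif. The DR3 pair was found in 13 windows, which is 0.0396%. Of the 10 listed genes, 8 had an entry, with 12 windows in all. A receptor core was in windows of 5 of the 8, namely S100a3, S100a4, S100a6, S100a11 and S100a16, and a DR3 pair in 0. Counted by window, as the 38.6% is, 9 of the 12 held a receptor core. S100a10 and S100a14 had no entry. A match is a run of letters and not a shown binding site, and the array does not measure binding.

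At 6 h none of the 9 genes was called. By limma 0 of 9 passed the adjusted threshold, against 0.852% of all genes (0.687% higher and 0.165% lower), and 0 of 9 had an unadjusted p under 0.05, against 7.01% of all genes. In all 9 the 1,25D and vehicle arrays overlapped, and 10.2% of all genes did not overlap at 6 h (5.68% higher and 4.51% lower). With 9 genes, counts of 0 are close to these shares and do not set the S100 genes apart. Changes ran from -0.06 for S100a3 to 0.19 for S100a9, with a median of 0.04.

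**Figure D3:**
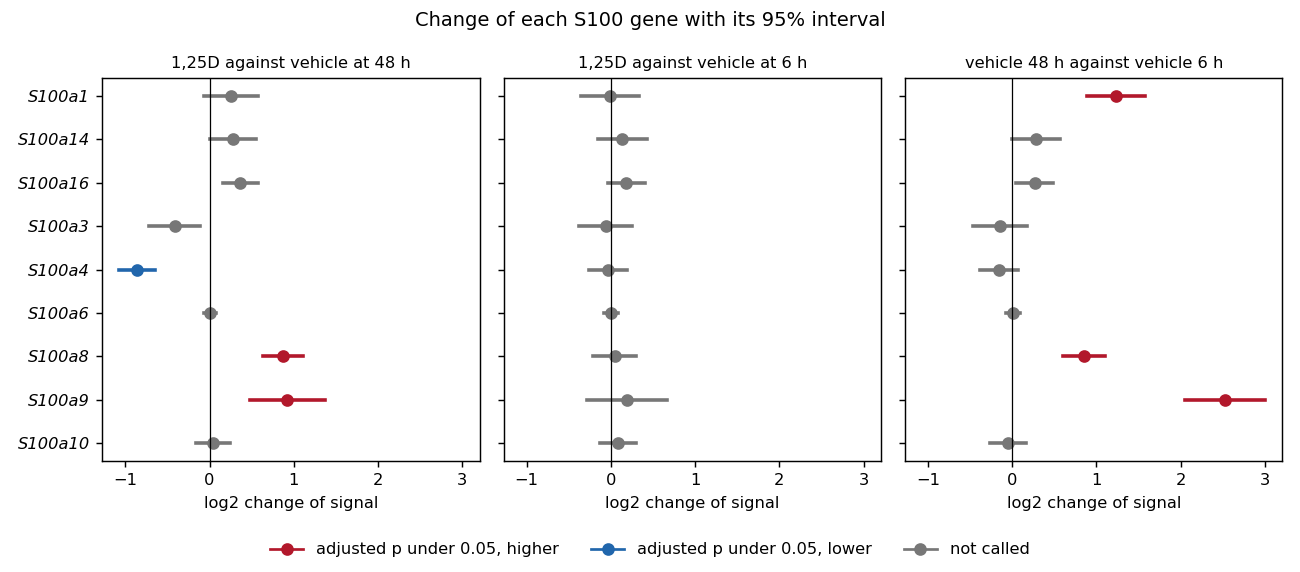
Log2 change (x axis) of each measured S100 gene (y axis, in RefSeq order along the chromosome) with its 95% interval from the limma fit, for 1,25D against vehicle at 48 h, the same at 6 h, and vehicle at 48 h against vehicle at 6 h; red and blue are calls at an adjusted p under 0.05. At 48 h S100a8 and S100a9 lay above 0 and S100a4 below, and at 6 h every interval included 0.

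The response at 48 h was set against that at 6 h in the same fit. The difference passed for S100a4 (-0.82, SE 0.14, adjusted p = 0.0235) and for S100a8 (0.83, SE 0.16, adjusted p = 0.0458), against 0.632% of all genes called (0.346% higher and 0.286% lower). At an unadjusted p under 0.05 there were 3 of 9, against 7.23% of all genes. For S100a9 the difference was 0.73 (SE 0.30, adjusted p = 0.773), so its responses at the 2 times are not shown to differ. The S100a4 difference was lost in 7 of 13 fits with a single array dropped: replicate 1 of the 48 h group with 1,25D, replicates 2 or 3 of its vehicle group, replicates 1 or 3 of the 6 h group with 1,25D, and replicates 2 or 3 of its vehicle group, where adjusted p reached 0.0852. The S100a8 difference was lost in 11 of these 13, where adjusted p reached 0.152, and held when replicate 1 of the 6 h group with 1,25D or replicate 2 of its vehicle group was dropped. Without both arrays that stand apart the S100a8 difference was lost as well (0.83, adjusted p = 0.0782 by limma). Over all fits without 1 array the S100a4 difference stayed between -0.90 and -0.72 and the S100a8 difference between 0.70 and 0.94.

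Of the 9 genes, 3 also rose with time in vehicle alone, where day of harvest and time in culture cannot be told apart. These were S100a9, S100a1 and S100a8, higher at 48 h than at 6 h, and 0 fell, against 18.6% of all genes (9.84% higher and 8.75% lower). At an unadjusted p under 0.05 there were 4 of 9, against 29.4% of all genes. S100a9 averaged 9.10 ± 0.39 at 48 h and 6.57 ± 0.262 at 6 h (SD, n = 3 each), a 5.77-fold difference (log2 change 2.53, SE 0.22, adjusted p = 5.12e-06). S100a8 was 1.81-fold higher at 48 h than at 6 h in vehicle (0.85, SE 0.12, adjusted p = 0.000232). Beside these stand the 1,25D changes at 48 h of 0.88 for S100a8 and 0.92 for S100a9, which share the vehicle 48 h arrays.

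S100a1, a gene of heart and muscle whose protein regulates calcium release channels, was called with time in vehicle and not with 1,25D. Its signals were 9.27, 9.51 and 9.39 in vehicle at 48 h, against 8.01, 8.08 and 8.39 in vehicle at 6 h. The groups lay well apart, with a change of 1.23 (SE 0.16, adjusted p = 0.00014). Its other probe set gave 1.13 (adjusted p = 0.000678). With 1,25D at 48 h the signals were 9.61, 9.54, 9.80 and 9.63, just above the vehicle arrays. That change of 0.25 was not called (95% interval -0.07 to 0.57, adjusted p = 0.962), and the other probe set gave 0.37 (adjusted p = 0.682). In both treatments the 48 h arrays lay above all 6 h arrays.

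S100a16, S100a14 and S100a3 had smaller changes at 48 h that were not called. S100a16, a widely expressed member found in many epithelia, gave 11.73, 11.80, 11.90 and 11.72 with 1,25D, against 11.38, 11.41 and 11.47 with vehicle. The groups did not overlap, and the change was 0.37 (95% interval 0.16 to 0.57, adjusted p = 0.103). Its other probe set gave 0.40 (adjusted p = 0.106). S100a16 passed in 3 of 26 alternative settings that measured it: when only the 48 h arrays were fitted (adjusted p = 0.0306), with array quality weights (adjusted p = 0.0157) and as the mean of its probe sets (adjusted p = 0.0329). Over time in vehicle its change was 0.27 (adjusted p = 0.126), and it was called when replicate 3 of the vehicle 6 h group was dropped (0.36, adjusted p = 0.0379). The other probe set gave 0.11 over time in vehicle (adjusted p = 0.707 by limma), and its groups overlapped.

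S100a3, a cysteine-rich member of the hair cuticle, was the other gene besides S100a4 with lower treated arrays. Its signals were 6.17, 6.38, 6.17 and 6.29 with 1,25D, against 6.62, 6.78 and 6.59 with vehicle, without overlap. The change was -0.41 (95% interval -0.71 to -0.12, adjusted p = 0.31), and with array quality weights it was called (adjusted p = 0.0353). S100a14, an epithelial member, ran from 10.87 to 11.26 with 1,25D and from 10.69 to 10.92 with vehicle, so the groups overlapped (change 0.28, 95% interval 0.01 to 0.55, adjusted p = 0.688). In all, 6 of 9 genes had groups that did not overlap at 48 h, 4 higher and 2 lower, against 12.6% of all genes (5.47% higher and 7.11% lower). In vehicle over time 5 of 9 did not overlap, all 5 higher at 48 h, against 31% of all genes (15.8% higher and 15.2% lower).

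S100a6 and S100a10 were called in none of the comparisons. S100a6, or calcyclin, had signals of 13.70 to 13.76 with 1,25D and 13.71 to 13.73 with vehicle at 48 h, and 13.70 to 13.71 with 1,25D and 13.65 to 13.74 with vehicle at 6 h. Its 95% intervals for 1,25D were -0.07 to 0.08 at 48 h and -0.08 to 0.08 at 6 h. These signals lie near the top of the array's range, which ended at 14.45, and whether the probe set was saturated was not tested. S100a10, or p11, which pairs with annexin A2 and has lost calcium binding, had signals of 12.82 to 12.92 with 1,25D and 12.79 to 12.92 with vehicle at 48 h. Its 3 probe sets gave changes of 0.04, -0.03 and -0.04 at 48 h, and 0 of 3 was called at either time. Over time in vehicle they gave -0.05, -0.55 and 0.05 (main, dimmest and other probe set), where the dimmest had a 95% interval of -1.23 to 0.13 (adjusted p = 0.382).

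Relatives outside the 10 genes were also read. Of 9 other S100 genes listed, 5 were measured, and 0 of 5 passed at 48 h or at 6 h by limma, while 1 of 5 at 48 h and 0 of 5 at 6 h had an unadjusted p under 0.05. Over all genes 2.39% passed at 48 h and 0.852% at 6 h, and 10.3% and 7.01% had an unadjusted p under 0.05. S100g had signals of 4.47, 4.18, 4.35 and 5.41 with 1,25D and 4.32, 4.66 and 4.11 with vehicle at 48 h. Its highest value was that of 1,25D 48 h replicate 4, an array that stands apart, and its signals over all arrays, 4.11 to 5.41, lay below the array medians of 5.57 to 5.67. S100b, the glial member, ran from 5.47 to 6.74, and its 2 highest values were on the 2 arrays that stand apart. S100a13, whose protein helps export a fibroblast growth factor, had 9.47, 9.73, 9.60 and 9.28 with 1,25D against 9.06, 9.23 and 9.07 with vehicle at 48 h, a change of 0.40 (adjusted p = 0.322). S100a13 rose with time in vehicle (0.87, adjusted p = 0.00105).

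**Figure D4:**
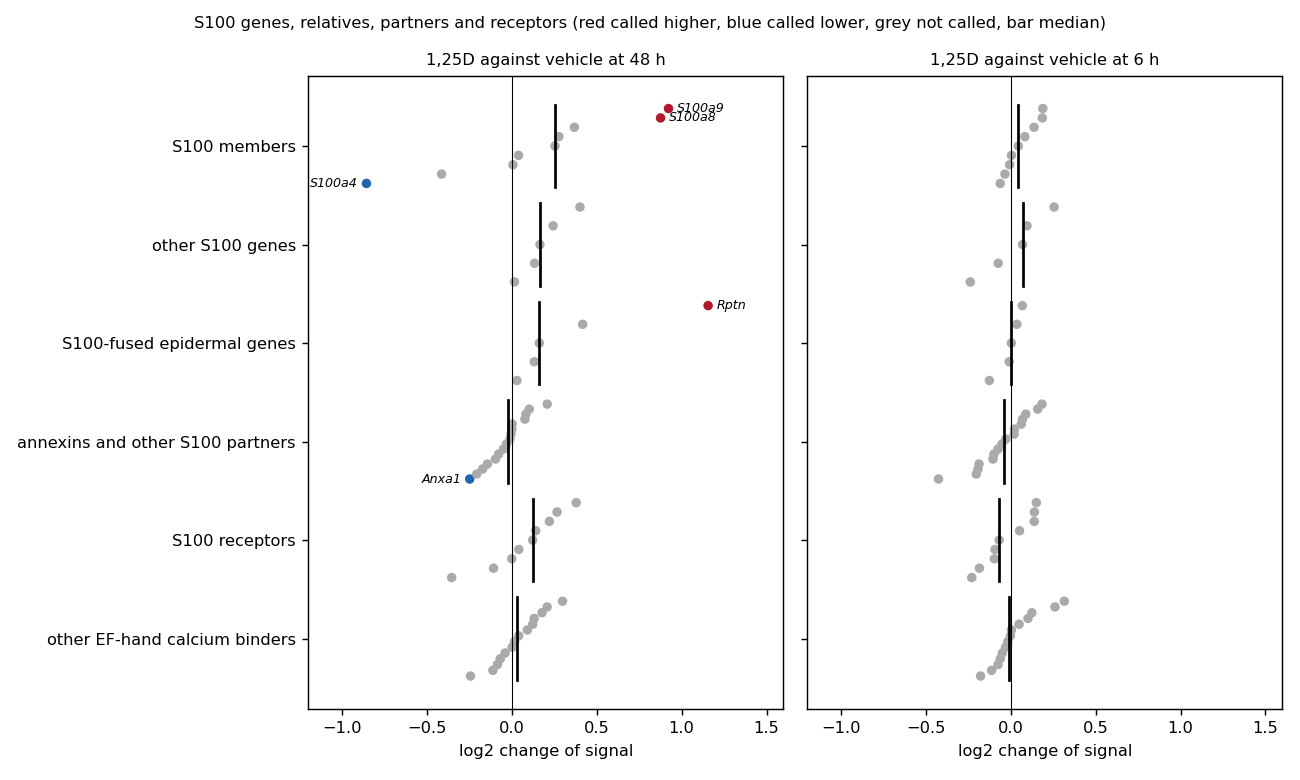
Log2 change with 1,25D at 48 h (left) and at 6 h (right) on the x axis for each measured gene of 6 lists (y axis), with the median as a black bar; red genes were called higher and blue genes lower. At 48 h the calls were S100a8, S100a9, S100a4, Rptn and Anxa1, and at 6 h there were 0 calls.

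Genes that encode an S100 domain fused to a long repeat, such as filaggrin and repetin, make structural proteins of the epidermis. Of 5 measured, 1 rose and 0 fell at 48 h, against 1.43% and 0.951% of all genes. The risen gene was Rptn, with signals of 9.87, 9.42, 9.88 and 8.91 with 1,25D and 8.21, 8.11 and 8.77 with vehicle (change 1.16, SE 0.23, adjusted p = 0.0224 by limma). The groups did not overlap, but dropping replicate 1 or 3 of the 1,25D group or replicate 1 or 2 of the vehicle group ended the call, with adjusted p as high as 0.146, as did fitting only the 48 h arrays. As the mean of its probe sets Rptn had a change of only 0.29 at 48 h (adjusted p = 0.273). In vehicle Rptn averaged 8.36 at 48 h and 4.11 at 6 h, a change of 4.25 (adjusted p = 1.13e-07). The 6 h mean lay below the array medians of 5.57 to 5.67. Over the 27 alternative settings this change over time ran from 1.38 to 4.49.

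Among 16 measured annexins and other partners of S100 proteins, 0 rose and 1 fell at 48 h. That gene was Anxa1, which encodes an annexin bound by S100a11, at 13.86, 13.78, 13.86 and 13.92 with 1,25D and 14.12, 14.12 and 14.07 with vehicle (change -0.25, SE 0.042, adjusted p = 0.00649). The groups did not overlap. Anxa1 was not called in a fit with no intensity trend or as the mean of its probe sets. At 6 h Anxa1 averaged 13.83 with 1,25D and 13.77 with vehicle, and it rose with time in vehicle (0.34, adjusted p = 0.000161 by limma). Its signals lie near the top of the array's range, and saturation was not tested. Anxa2, the partner of S100a10, kept within 13.41 to 13.59 over all 13 arrays. With time in vehicle 2 of the 16 rose and 2 fell, against 9.84% and 8.75% of all genes. Among those that fell was Cacybp, which encodes a protein that binds S100a6 (-0.61, adjusted p = 0.00168 by limma).

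Of 9 receptors for released S100 proteins, 0 passed at 48 h or 6 h by limma, and 2 at 48 h and 0 at 6 h had an unadjusted p under 0.05, against 10.3% and 7.01% of all genes. Tlr4, a receptor of S100a8 and S100a9, had signals of 7.98, 8.37, 7.97 and 8.06 with 1,25D and 8.35, 8.29 and 7.97 with vehicle at 48 h, which overlapped. With time in vehicle 4 of the 9 rose and 0 fell, against 9.84% and 8.75% of all genes, Tlr4 (0.88, adjusted p = 0.00187) and Bsg, which encodes basigin, a further receptor of S100a9 (1.67, adjusted p = 2.87e-05), among them. Ager, the gene of RAGE, had signals of 5.96 to 7.12, with the highest values again on the 2 arrays that stand apart. Of 14 other EF-hand calcium binders 0 passed at either time by limma, and 1 at 48 h and 1 at 6 h had an unadjusted p under 0.05, read against the same shares. Counts for these lists at 48 h, 1 of 16 for partners and 0 of 9 for receptors, compare with 2.39% of all genes.

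The genes whose signal followed an S100 gene most closely were ranked by Pearson correlation over the 13 arrays. The ranking took in 13365 brighter genes and left out the listed S100 genes, so these could not appear in it. The correlations describe arrays that fall into 4 groups and share the difference between 6 h and 48 h. S100a9 was most like Sprr1a (r = 0.995), a cornified envelope gene, Dmkn (0.994), which encodes the secreted epidermal protein dermokine, and 0610040J01Rik (0.994). S100a8 was most like Ifitm10 (0.986), Dap (0.983) and Blvrb (0.982). S100a4 was most like Tmsb4x (0.968) and Tagln2 (0.947), which encode actin-binding proteins, and the peroxiredoxin gene Prdx4 (0.960). S100a1 was most like Gabarap (0.987), Nagk (0.985) and Ddt (0.985).

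All 10 genes lie on mouse chromosome 3 in RefSeq, in 1 interval that also holds the epidermal differentiation complex. From S100a1 to S100a10 the interval has 70 protein-coding genes, of which 48 were measured. The interval was chosen after its values were seen. In order, S100a1, S100a14 and S100a16 come first, then S100a3, S100a4 and S100a6, then S100a8 and S100a9 side by side, and S100a11 and S100a10 lie at the far end. The fallen gene S100a4 has S100a2 and S100a5 as its neighbours, and S100a7a lies between S100a6 and the risen pair. Of the 39 measured genes in the interval that are no member, 10 rose and 0 fell at 48 h, which is 25.6%, against 2.39% of all genes.

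**Figure D5:**
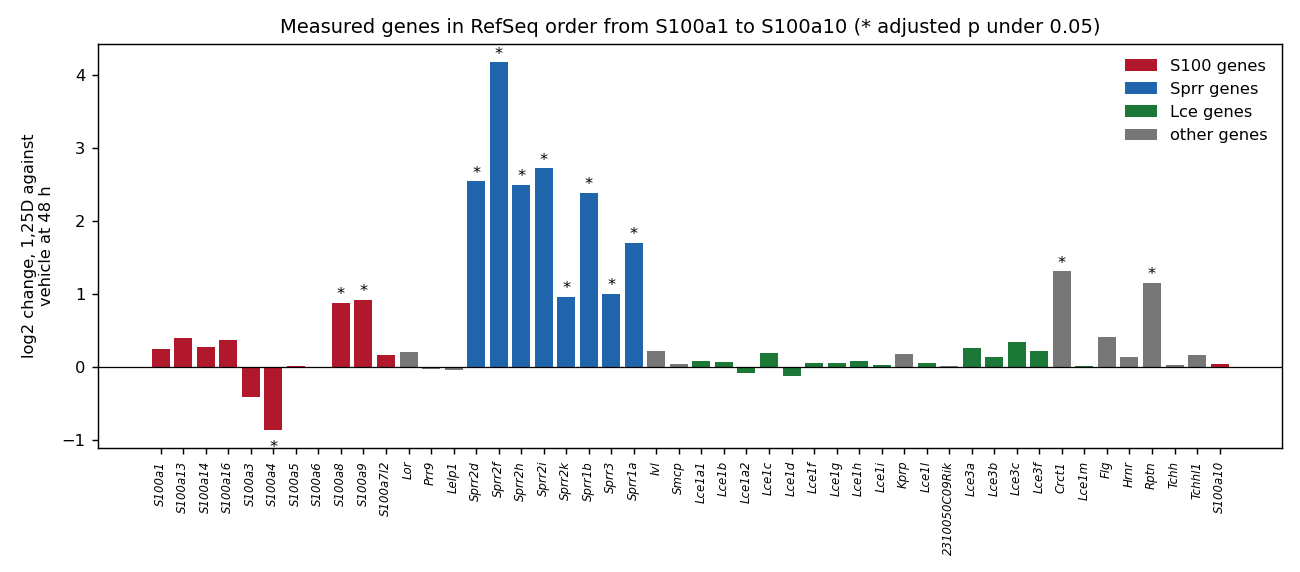
Log2 change with 1,25D at 48 h (y axis) for the 48 measured genes between S100a1 and S100a10, in RefSeq order (x axis, gene rank and not distance); colours are gene families and asterisks mark an adjusted p under 0.05. All 8 Sprr genes were called higher, S100a8 and S100a9 were called higher, S100a4 was the only gene called lower, and 0 of 15 Lce genes was called.

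These 10 were 8 of 8 measured Sprr genes, which encode small proline-rich proteins of the cornified envelope, together with Crct1 (1.31, adjusted p = 0.00144) and Rptn. The Sprr changes had a median of 2.44, but Sprr genes are close copies and their probe sets may share signal. Of 15 measured Lce genes, which encode late envelope proteins, 0 passed at 48 h by limma, with a median change of 0.08. Of the 48 measured genes of the interval S100a4 was the only gene called lower at 48 h.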

How the data were processed

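The authors' deposited values are log2 signals, 1 per probe set and array, for 45101 probe sets and 13 arrays, between 3.05 and 14.45 with array medians of 5.57 to 5.67. The submitters' processing notes name MAS5, without version or role; how arrays were scaled is not given in the sources used here. No detection calls entered the work. Groups came from sample titles. Of 45037 probe sets left without 64 controls, 34945 had 1 gene symbol in the platform annotation, 932 had several and 9160 had none; symbols with several were not used to name a gene, and each of 18193 genes was read by its brightest probe set.

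One limma model (version 3.58.1, R 4.3.3) held the 4 group means, with eBayes and an intensity trend; p-values are two-sided, and Benjamini-Hochberg adjustment covered every tested probe set. Intervals are moderated and not adjusted. The fit was run on simulated data with independent noise and added changes. That simulation had no time effect and no arrays that stand apart, so it does not speak to those features of the data. Tables and promoter searches used Python 3.11.15. The members, gene lists and tests were chosen with earlier results of these data known. Named were all members, called genes of each list (at most 4) with S100g, S100b, S100a13, Anxa2 and Ager, and the 3 genes most like each called member; Tlr4, Bsg and Cacybp, the cell type markers, Sprr and Lce genes and Crct1 were named after their values were seen. Alternatives were offsets of 16 and 64, quantile normalization, median centring, other variance models, leaving out dim probe sets (lowest 40%), only the groups compared, array weights, the replicate number as a block, dropping multi-transcript probe sets, the mean of a gene's probe sets, each array left out, and the arrays that stand apart left out.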

Additional observations from a re-analysis of the deposited data

Results flagged for a closer look

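The response of S100a4 to 1,25D differed between 48 h and 6 h in the test of that difference (48 h minus 6 h: -0.82 on the log2 scale, adjusted p = 0.0235 by limma). The response of S100a8 differed as well, in the other direction (48 h minus 6 h: 0.83, adjusted p = 0.0458 by limma). Both calls depended on the setting: the S100a4 difference was lost in 9 of 26 alternatives and the S100a8 difference in 17 of 25. Of 9 groups of 4 arrays looked at for a lone value, 1 for each measured S100 gene at 1,25D 48 h, 0 had one.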

How the results depend on the processing

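Counts of called S100 genes under 27 alternatives were 0 in all at 6 h, 2 to 4 for vehicle over time against 3, and 2 to 3 at 48 h with 1 array left out against 3. Array quality weights gave 5 at 48 h. For the difference between times, 2 became 1 with median centring, no intensity trend, a robust trend, multi-transcript probe sets dropped (S100a8 is then not measured) or the 2 arrays that stand apart left out, and 0 without those and vehicle 48 h replicate 2. With 1 array left out it was 0 to 1. The causes were not tested.

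Same-numbered arrays did not consistently deviate together at 48 h (correlations of -0.08, -0.564 and 0.388). At 6 h their correlations were all positive (0.297, 0.257 and 0.029), against -0.34 to 0.201 for arrays of different number. The main fit did not take the numbers as pairs. With the replicate number as a block the count of calls stayed at 3 at 48 h and was 0 for the difference.

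Signs turned for values near 0 that were not called. S100a6 at 48 h gave -0.0106 with quantile normalization, -0.014 with median centring, -0.0001 with array weights and -0.0062 both with the replicate block and without the 2 arrays; its difference between times gave -0.0124, -0.0201, -0.0052, -0.0093 and -0.0248 in the same order, and -0.0198 without those 2 and vehicle 48 h replicate 2. S100a1 at 6 h gave 0.0239 with array weights, S100a10 at 48 h -0.0091 as the mean of its probe sets, S100a4 at 6 h 0.0005 without the 2 arrays, and S100a10 over time in vehicle 0.0281 without them. With 1 array left out, changes at 6 h ranged from -0.1121 to 0.1694 for S100a1, -0.1603 to 0.061 for S100a3, -0.0899 to 0.0133 for S100a4, -0.0245 to 0.0186 for S100a6, -0.0632 to 0.1728 for S100a8, -0.0212 to 0.2002 for S100a10 and -0.0263 to 0.2221 for S100a14. S100a6 ranged from -0.0062 to 0.0117 at 48 h, -0.013 to 0.0301 for the difference and -0.0172 to 0.0259 over time in vehicle. S100a10 ranged from -0.1614 to 0.06 for the difference and -0.1548 to 0.0281 over time. The number of arrays limits the precision.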
